A study of Mus musculus with 2 samples.

Results

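Weak repeated sites are short stretches of muscle chromatin that DNase-seq found slightly open in 2 separate libraries, outside every peak of the authors' stricter peak lists. The authors deposited a strict and a permissive peak list for each library, and the sites were chosen by comparing these lists. A permissive peak counted as a weak repeated site if it overlapped no strict peak of either library and shared at least 1 base with a permissive peak of the other library. Replicate 1 held 14057 such peaks among 138117 permissive peaks (10.2%) and replicate 2 held 13971 among 139545 (10.01%). They made up 31.9% and 31.8% of the peaks outside all strict peaks. Merged over both libraries they formed 14218 sites covering 2639 kb, or 0.0968% of the genome, and 13612 of these were members in both libraries. In the other 606 the partner peak touched a strict peak, so that only 1 library gave a member peak. The remaining peaks outside all strict peaks, 30054 in replicate 1 and 29943 in replicate 2, overlapped no permissive peak of the other library. They are called weak in one library below. Fewer sites met stricter forms of the rule for weak repeated sites. There were 9280 where paired peaks had to overlap by 50% of each and 11148 where no strict peak lay within 500 bases. Where the lowest false discovery rate had to reach 0.01 in both libraries there were 5590.

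Both libraries came from the gastrocnemius, the calf muscle, of male B6CASTF1/J mice aged 14 days, first-generation hybrids of 2 mouse strains, with no treatment named. They are biological replicates of 1 group, and replicate 1 was sequenced on 2 instrument models. The labels carry the words 3x Males without saying how many animals were pooled, and both libraries name the same donor entry. There was no second condition, so no comparison between conditions was possible. Values are given in the order replicate 1 and replicate 2, and ± is the SD over the 2 libraries (n = 2), which may be technical. No test across sites was run, since sites of a library are not replicates.

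DNase I cuts DNA that is not packed tightly on nucleosomes, and the density of its cuts marks promoters, enhancers and insulators. A promoter is the stretch at a gene's start where transcription begins, and an enhancer is a distant element that acts on a gene in particular cells. In muscle fibres many enhancers carry E-boxes, the binding words of MyoD and related factors, and sites for MEF2, AP-1 or nuclear factor I (NFI). A footprint is a run of bases within an open stretch that is cut less than its surroundings, usually taken as a trace of bound protein. In whole muscle, which also holds vessels, nerve, connective tissue and blood cells, fewer cells with an open site and less opening per cell cannot be told apart.

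7 sequences show what the sites look like. The first is a promoter of a muscle gene that no strict peak covers, the next 4 are those with the highest mean signal percentile among sites that could be printed with a CTCF, MEF2, E-box or AP-1 match inside the printed bases, and the NFI site and the C1qa promoter were chosen after their values were seen. Brighter sites with a match were passed over, for example where they were untranslated or where the match lay in the 200-base window about the midpoint but outside the site. Untranslated bases were removed, and capitals mark the named motif match. Coordinates are on mm10 and letters are from the RefSeq copy of that build, given 5′ to 3′ on the plus strand except for C1qa, which is on the minus strand.
Myh4 promoter piece, chr11:67237741-67237811, E-box in capitals: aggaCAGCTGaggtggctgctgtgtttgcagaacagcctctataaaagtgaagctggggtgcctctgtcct
Site near Tpm1, chr9:67047291-67047515, CTCF match in capitals: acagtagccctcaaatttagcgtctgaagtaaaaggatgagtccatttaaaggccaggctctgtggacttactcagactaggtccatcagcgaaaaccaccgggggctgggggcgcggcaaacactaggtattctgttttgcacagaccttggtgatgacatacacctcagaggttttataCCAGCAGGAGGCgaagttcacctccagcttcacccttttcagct
Site near Gins2, chr8:120590061-120590260, MEF2 match in capitals: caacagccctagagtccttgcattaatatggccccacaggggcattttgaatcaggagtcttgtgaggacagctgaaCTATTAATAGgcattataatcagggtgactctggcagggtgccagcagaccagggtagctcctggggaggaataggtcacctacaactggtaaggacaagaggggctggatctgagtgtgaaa
Site near 1700001O22Rik, chr2:30716581-30716856, E-box in capitals: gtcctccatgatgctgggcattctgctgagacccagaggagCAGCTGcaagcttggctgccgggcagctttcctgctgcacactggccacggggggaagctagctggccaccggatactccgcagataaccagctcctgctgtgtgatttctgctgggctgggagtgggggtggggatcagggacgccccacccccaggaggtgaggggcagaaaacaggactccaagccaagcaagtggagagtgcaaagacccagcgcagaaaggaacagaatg
Site near Bahcc1, chr11:120262446-120262660, AP-1 match in capitals: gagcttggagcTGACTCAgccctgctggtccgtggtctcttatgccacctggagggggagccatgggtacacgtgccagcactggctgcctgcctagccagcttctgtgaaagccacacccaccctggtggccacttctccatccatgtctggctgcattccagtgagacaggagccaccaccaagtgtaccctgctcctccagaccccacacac
Site near Ahdc1, chr4:133050262-133050379, NFI match in capitals: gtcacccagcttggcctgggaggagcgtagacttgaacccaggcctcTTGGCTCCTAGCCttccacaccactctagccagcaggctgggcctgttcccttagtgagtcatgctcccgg
C1qa promoter piece, chr4:136898845-136898974, RUNX match in capitals: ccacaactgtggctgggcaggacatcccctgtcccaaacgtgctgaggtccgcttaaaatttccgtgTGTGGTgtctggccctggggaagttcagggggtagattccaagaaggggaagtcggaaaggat

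The signal of the sites was low by the rule that chose them and is given as a description. Signal is the authors' value per peak, on a scale that no source at hand explains, so it was read within a library. The median was 0.463 in replicate 1 and 0.330 in replicate 2, which is 36.4% and 39.6% of the median strict peak in the same library (38.0% ± 2.23, n = 2). Quartiles lay at 0.357 and 0.602 in replicate 1 and at 0.261 and 0.417 in replicate 2. The highest weak repeated peaks had signals of 1.77 and 1.31, and 9.71% and 10.4% of members exceeded the lower quartile of strict peaks. Peaks that were weak in one library only had lower medians, 0.362 and 0.275. The median width was 139 and 144 bases, against 114 and 119 for peaks weak in one library and 180 in both libraries for strict peaks.

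Sites that were brighter in one library were brighter in the other. Across the 13612 sites that were members in both libraries, the Spearman correlation of signal between libraries was 0.788, taking the highest peak of a site in each library. Across 66767 overlapping pairs of strict peaks, taken peak by peak, it was 0.824. This describes regions that share their 2 libraries and their base composition, and regions are not independent replicates. The ratio of replicate 1 to replicate 2 had a median of 1.41 for the same weak repeated sites and 1.54 for strict pairs. Of these sites, 99.5% lay within 2-fold of their median ratio. Over 13816 overlapping pairs of weak repeated peaks, midpoints lay a median of 22.5 bases apart, and 67.0% of pairs overlapped by at least 50% of each peak.

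The false discovery rate (FDR), which the authors deposited per base for bases under 0.05, carried almost no such order within the range that the rule left. The lowest FDR within a weak repeated peak had a median of 0.00701 and 0.00613, against 0.0133 and 0.0112 for peaks weak in one library. The lowest FDR of a site had a Spearman correlation of 0.068 between the libraries, over the same 13612 sites as for signal. These sites are permissive peaks outside all strict peaks, so the rule restricted their FDR in both libraries. How far this lowered the correlation was not tested, and no disagreement of the libraries is read from it. All strict peaks held a base at 0.001 or less, but so did 1284 and 1512 members, or 9.13% and 10.8%, which nevertheless lay in no strict peak. Just past that limit, from 0.001 to 0.0012, the members had median signals of 0.549 and 0.376 and median widths of 179 and 193.5 bases. Strict peaks just inside it, from 0.0008 to 0.001, had similar signals of 0.530 and 0.372 but were only 59 and 56 bases wide. Widths of weak and strict peaks, here and above, come from different peak lists. Whether the lists bound a peak alike is not stated, so these widths may not be comparable.

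The share of weak peaks that recurred in the other library fell with the FDR. Of weak peaks at 0.001 or less, 49.1% and 46.1% were repeated. Between 0.005 and 0.01 the share was 33.3% and 32.9%, and between 0.02 and 0.05 it was 21.4% and 21.7%. The 2 libraries followed the same course, differing by at most a few percentage points in each of the 6 FDR classes.

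**Figure D1:**
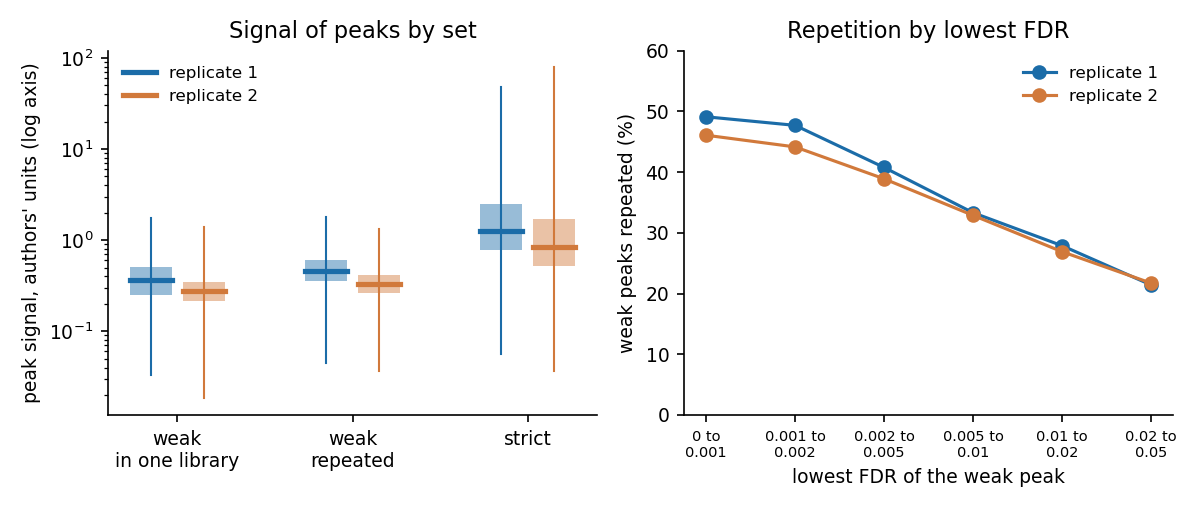
Left, signal per peak in the authors' units on a log axis for peaks weak in one library, weak repeated peaks and strict peaks, with lines from lowest to highest, boxes from lower to upper quartile and bars at the median, by replicate. Right, share of weak peaks repeated in the other library by lowest FDR, falling from 49.1% and 46.1% to 21.4% and 21.7%.

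Weak repeated sites lay mostly in introns and between genes, and less often at promoters than strict peaks did. Classes follow GENCODE M21, where a promoter is 1 kb on either side of an annotated start of any gene and takes precedence over exon and intron. Introns held 45.3% ± 0.0603 of the weak repeated peaks, intergenic DNA 32.9% ± 0.0994, promoters 14.9% ± 0.0767 and exons 6.92% ± 0.116 (n = 2 libraries). By the rule the libraries share most of these sites, so these SDs are small by selection and do not measure agreement between replicates. Among strict peaks the promoter share was 31.5% ± 1.63 and the intron share 34.5% ± 0.550. Neither share overlapped between the sets in the 2 libraries. The promoter share of weak repeated peaks depends on the window, and was 5.88% with 250 bases and 23.3% with 2500 bases on either side. Peaks weak in one library had a promoter share of 13.4% and 14.9%, the latter as in repeated sites, and a lower intron share of 39.3% and 42.3%.

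**Figure D2:**
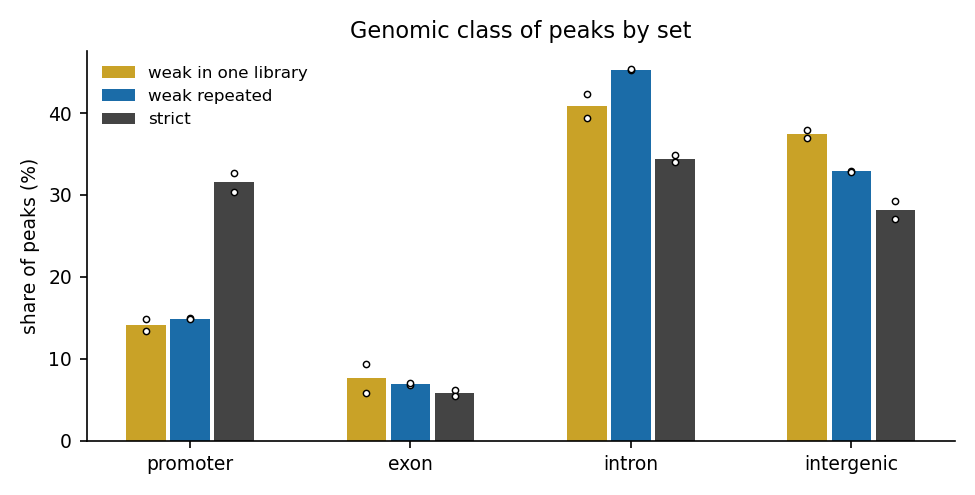
Share of peaks in promoters, exons, introns and intergenic DNA for peaks weak in one library, weak repeated and strict, where bars are means and circles the 2 libraries. Weak repeated peaks have a promoter share of 14.9% beside 31.5% for strict peaks, and an intron share of 45.3% beside 34.5%.

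Many sites sat next to stronger ones. The median gap from a merged site to the nearest strict peak of either library was 3319 bases, and 3297 sites (23.2%) had one within 500 bases. Strict regions themselves lay a median of 1888 bases from the next strict region, with 34.3% within 500 bases. At the other end, 656 weak repeated sites lay over 50 kb from any strict peak. The nearest start of a protein-coding gene was a median of 30867 bases away, 10.5% of sites had one within 1000 bases, and 22.6% had none within 100000 bases. Of the 2181 merged sites in the promoter class, 1589 were at protein-coding genes and 195 at long intergenic noncoding genes only. A strict peak lay within 1000 bases of 64.6% of promoter-class sites.

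Footprints were present in most of the sites, but fewer sites than strict regions held overlapping footprints of the 2 libraries. At least 1 footprint of the same library overlapped 74.1% and 74.7% of weak repeated peaks (74.4% ± 0.414, n = 2), against 55.3% and 65.1% of peaks weak in one library and 90.7% and 91.5% of strict peaks. Width differs between these sets, and per kb of peak the numbers were 8.65 and 8.68 for weak repeated, 6.86 and 8.33 for one-library and 14.3 and 15.4 for strict peaks. Of the merged sites, 58.7% had a footprint in both libraries and 9.11% in neither. Footprints of the 2 libraries overlapped each other in 35.1% of weak repeated sites, compared with 88.2% of 63851 regions that were strict in both libraries. The 14218 merged sites held 17689 and 18895 footprints, and those strict regions 206164 and 233464. A strict region thus offered more footprints that could overlap, and recurrence per footprint was not computed. Signal and footprint number per kb moved together across these sets, and the part of signal in the footprint share was not tested.

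The DNA of the sites was richer in G and C than its surroundings, and less often repetitive. In windows of 200 bases about the midpoint, weak repeated sites had a median GC content of 52%, flanking windows 2 kb away 45%, and strict peaks 55.5% and 53.5%. Peaks weak in one library had 54.5% and 49%, so a GC content above the flanks was not particular to the repeated sites. Repeats took up 9.33% of bases in weak repeated sites, 25.6% in flanking windows and 7.66% and 8.67% in strict peaks, but 18.5% and 13.4% in peaks weak in one library. The CpG ratio, observed over expected CpG pairs, had a median of 0.242 in weak repeated sites, 0.172 in flanks and 0.322 and 0.310 in strict peaks. In peaks weak in one library it was 0.227 and 0.225, also above the flanks. Only 8.63% of weak repeated sites had a ratio over 0.6, the range of CpG islands, beside 26.4% and 24.4% of strict peaks.

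Motif matches differed between the sites and their flanks, and for some words between the sites and strict peaks. Matches to 20 short binding words were counted on both strands in the same windows, and a match is a description of letters, not of binding. The E-box CAGCTG, a binding word of MyoD and related bHLH factors, was in 26.0% of weak repeated sites, 9.05% of 26335 flanking windows, and 24.5% and 21.3% of strict peaks. Peaks weak in one library held it in 23.3% and 17.7%. In windows of 100 bases the share in weak repeated sites was 16.4%. Outside promoters it was 27.1%, between the 29.0% and 24.4% of strict peaks. The E-box site printed above is named for 1700001O22Rik, the gene with the nearest protein-coding start, but that start lay 84988 bases away. It had signals of 1.76 and 0.771 and 3 and 4 footprints. NFI matches (nuclear factor I, a family of regulators in muscle and other tissues) were in 3.71% of sites and 0.384% of flanks, 9.68 times as many. Peaks weak in one library held NFI matches in 2.04% and 4.67%, in replicate 2 more often than weak repeated sites. Strict peaks held NFI matches in 2.99% and 3.69%, and outside promoters in 3.51% and 4.35% against 3.93% of the sites. For neither word was the order of sites and strict peaks the same in both libraries outside promoters. AP-1 matches (TGANTCA, the word of FOS and JUN factors, where N is any base) were in 9.90% of sites, 5.70% of flanks and 8.17% and 7.77% of strict peaks, and outside promoters the shares were 10.8% in sites and 10.3% and 9.51% in strict peaks. TEAD matches (GGAATG) were in 13.5% of sites and 10.7% of flanks. The glucocorticoid response element was in 0.886% of sites and 0.357% of flanks.

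Words that mark promoters and insulators were scarcer than in strict peaks. CTCF, the insulator protein that anchors chromatin loops, had a match in 3.17% of weak repeated sites, 1.40% of flanks and 9.09% and 11.99% of strict peaks. In peaks weak in one library the CTCF share was 1.85% and 5.56%, below and above that of weak repeated sites. The GC box GGGCGG, bound by SP and KLF factors at promoters, was in 10.2% of sites, 2.73% of flanks and 24.5% and 20.9% of strict peaks. NRF1, a regulator of mitochondrial genes, matched 0.267% of sites against 2.13% and 1.95% of strict peaks, and ETS (CCGGAAG) 1.84% against 4.42% and 3.99%. Outside promoter windows CTCF still matched fewer of the weak repeated sites, 3.31% against 11.6% and 15.3% of strict peaks. Outside promoters the ETS shares were 1.70% against 1.84% and 1.73%.

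Some words were rarer in weak repeated sites than in their flanks. MEF2, a muscle factor with an A- and T-rich word, matched 2.17% of sites and 3.49% of flanks. The site near Gins2 printed above, 857 bases from a start, was the brightest shown with a MEF2 match, at 1.08 and 0.596. GATA factors, with the word AGATAA, matched 6.03% of sites and 11.3% of flanks. Homeodomain factors share the word TAATTA, which was in 2.24% of sites and 5.62% of flanks. These words are rich in A and T while the sites have more G and C than the flanks, and the part of base composition in any of the motif shares was not tested. The CArG box of serum response factor lay close to the flanks, at 0.865% and 1.03%.

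**Figure D3:**
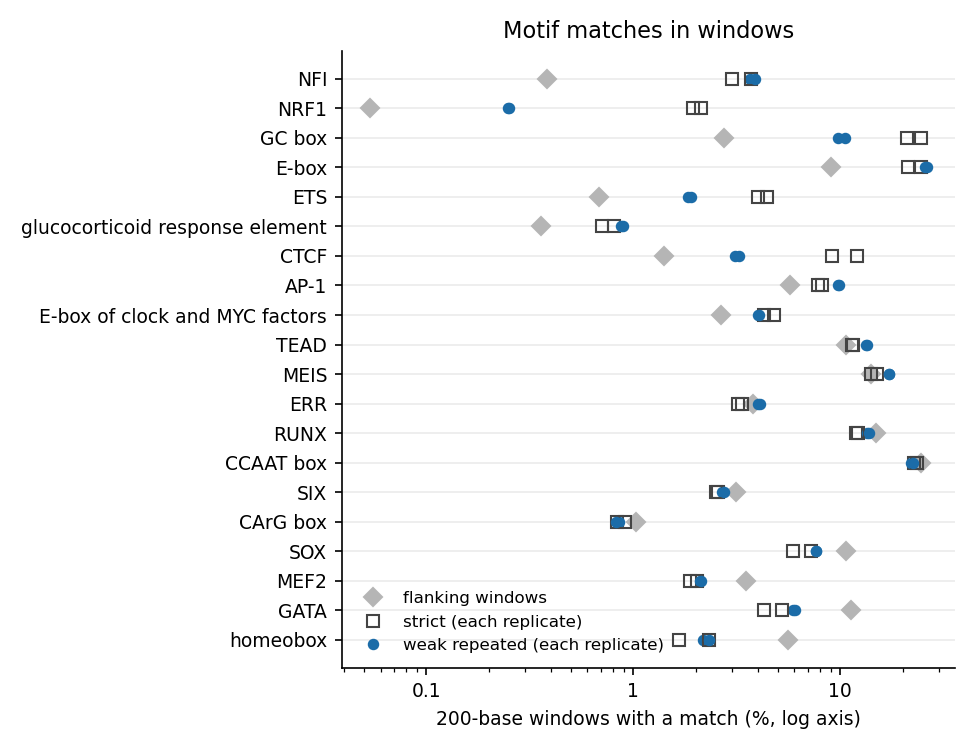
Share of 200-base windows with a match to each of 20 motifs on a log axis, for weak repeated sites and strict peaks (1 symbol a library) and for flanking windows, ordered by the ratio of weak repeated sites to flanks. NFI stands first with 3.71% of sites against 0.384% of flanks, and CTCF and the GC box lie well below the strict peaks.

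For a few words the matches coincided with footprints. Footprints took up 6.68% and 7.10% of all bases of the merged sites. Of 555 NFI matches inside the sites, 45.9% lay in a footprint of replicate 1, 52.6% in one of replicate 2 and 33.2% in both. For 428 CTCF matches the shares were 29.2% and 33.2%, and for 39 NRF1 matches 38.5% and 46.2%. The 4126 E-boxes were in footprints in 16.4% and 13.4% of cases. AP-1 matches, at 7.41% and 6.98%, and MEF2 matches, at 5.47% and 7.30%, stood at about the level of all bases. In regions strict in both libraries, where footprints cover 19.2% and 21.9% of bases, the shares were 86.6% and 88.8% for NFI and 82.0% and 86.4% for CTCF. NFI matches thus lay in footprints more often than CTCF matches in the weak repeated sites of both libraries, while in strict regions the 2 words were within 5 percentage points of each other. The NFI site near Ahdc1 printed above had signals of 1.27 and 0.711 with 1 and 2 footprints. The CTCF site near Tpm1 had 1.18 and 0.780 with 3 and 2 footprints, and a strict peak lay 164 bases away.

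**Figure D4:**
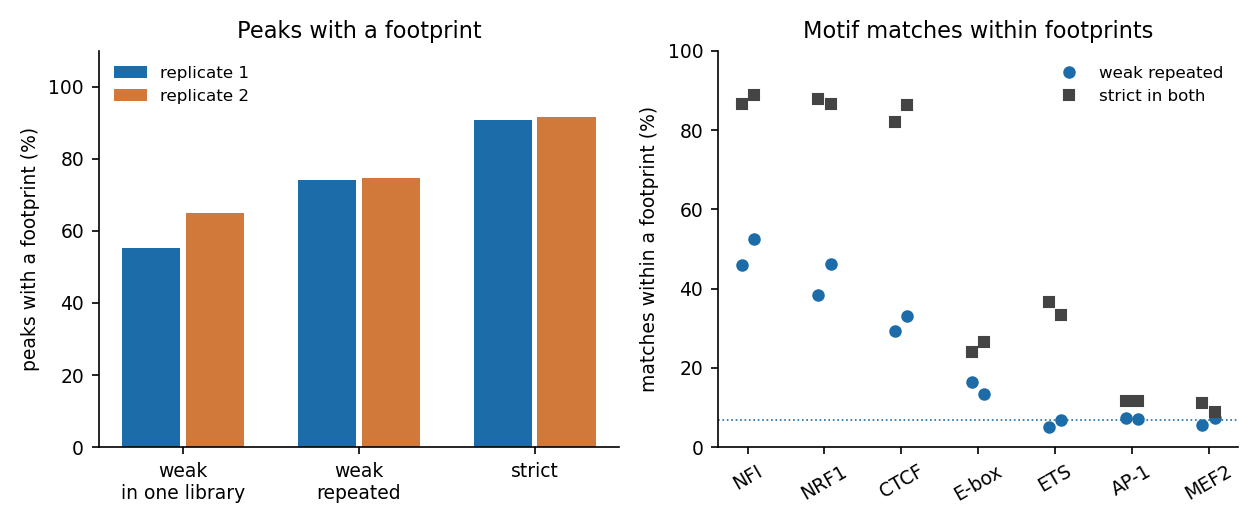
Left, share of peaks that overlap a footprint of the same library, by set and replicate, with weak repeated peaks at 74.1% and 74.7%. Right, share of motif matches lying in a footprint of replicate 1 and replicate 2 (left and right symbol) in weak repeated sites and in regions strict in both libraries, where the dotted line is the mean share of all bases of weak repeated sites that lie in a footprint.

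At 309 of 21911 protein-coding genes (1.41%) a weak repeated site was the strongest evidence of an open promoter, with no strict peak of either library within 1 kb of any start. A strict promoter peak was present at 14282 genes, 747 had only a weak peak of one library, and 6573 had none. With a lowest FDR of 0.01 or less required in both libraries, 125 genes were left, and with a reciprocal overlap of 50% 206. Another 1214 genes had both a strict peak and a weak repeated site. The 309 genes drew on 303 distinct sites, since neighbours can share one. Their sites had median signals of 0.485 and 0.307, and 58.3% had a footprint in both libraries. The promoter CpG ratio had a median of 0.389 at these genes, between 0.717 at genes with a strict peak and 0.165 at genes with no peak. RefSeq gave a start for 292 of them, and in 133 the start lay inside the weak repeated site.

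In the muscle lists 2 genes had such a promoter, and that of Myh4 was the brighter. They were 1 of 15 fast-fibre genes and 1 of 15 slow-fibre genes. With 1.41% of all protein-coding genes qualifying, a list of this size would be near that share with 0 or 1 gene, so nothing is read from this count. Myh4 encodes myosin heavy chain IIb, the motor protein of the fastest fibres. Its site at chr11:67237741-67237862 had signals of 1.01 and 0.862, at the 97.6th and 99.7th percentile of the members of each library, with a lowest FDR of 0.0110 and 0.00873. It held 2 and 1 footprints. The GENCODE start lies downstream of the site, but the RefSeq start, at base 67237812, falls inside the site, and the piece printed above ends just before it. The site thus failed the strict list in both libraries although its signal was near the top of the weak repeated sites.

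Myoz2, a Z-disc protein of slow fibres, was the other contractile gene with such a promoter. Its site at chr3:123034831-123035041, with the RefSeq start inside, had signals of 0.396 and 0.220 and 4 and 2 footprints, and the nearest strict peak was 50070 bases away. MEF2, E-box, AP-1 and CCAAT-box matches lay in its window. Of the 15 fast-fibre genes 13 had a strict promoter, of the 15 slow-fibre genes 8, and of the 30 myogenic regulators 28, the other 2 having a weak peak in one library only. None of the lists for the Z disc, excitation-contraction coupling, metabolism, satellite cells or the neuromuscular junction had a gene that depended on a weak repeated site, which is near the 1.41% of all genes for lists of 17 to 27 genes.

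Most of the other lists were drawn up for cell types other than muscle fibres, and some of their genes had such a promoter. The macrophage and leukocyte list had 3 of 21 (14.3%, against 1.41% of all genes), namely C1qa, C1qb and C1qc. They encode the chains of complement C1q, made mainly by macrophages, and lie side by side on chromosome 4, so they are 1 locus rather than 3 separate cases. C1qa had signals of 0.557 and 0.353, C1qb 0.641 and 0.408, and C1qc 0.786 and 0.413, all lower in replicate 2, as in the set as a whole. Footprints numbered 2 and 1, 6 and 1, and 3 and 4. The nearest strict peak was 8206, 20700 and 14020 bases away. In that list 6 genes had a strict promoter, 3 a weak peak in one library and 9 none.

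Further genes of blood cells stood among the 309, picked here after their values were seen. The share of blood-cell genes among the 309 or among all genes was not computed, so nothing is read from their presence. Itgb2, the beta chain of leukocyte integrins, had signals of 0.624 and 0.367 at a site 94 bases from its start. Vav1, a signalling protein of blood cells, had 0.747 and 0.427, and Hcls1, a cytoskeletal protein of the same cells, 0.496 and 0.454. Laptm5, a lysosomal protein of leukocytes, had 0.518 and 0.390, Il16, a lymphocyte attractant, 0.585 and 0.5001, and Lyz1, a lysozyme, 0.585 and 0.284. The lymphocyte list had no such promoter among 20 genes, of which 16 had no promoter peak, and the erythroid list none among 14.

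Single genes came from the remaining lists. Aplnr, the apelin receptor of endothelium, had signals of 0.613 and 0.592, the listed gene with the smallest ratio between the libraries, and Ncmap, a myelin protein of Schwann cells, 0.468 and 0.243. In the heart-enriched list 2 of 20 genes qualified. Hand2, a regulator of heart and limb development, had 0.825 and 0.573 at a site centred 3 bases from its start, and Nppa, the atrial natriuretic peptide, 0.569 and 0.271. In the neuronal list 2 of 20 did, with Stmn2 at 0.273 and 0.197 and Slc32a1 at 0.357 and 0.239. Cdh1, the epithelial cadherin, was the 1 of 20 in the epithelial list, at 0.424 and 0.284. No hepatocyte, germ cell, adipocyte or ubiquitous gene qualified. With 1.41% of all genes qualifying, a list of this size would be near that share with 0 or 1 gene, and nothing is read from these counts. All 26 ubiquitous genes had strict promoters.

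Outside the lists the weak-only promoters with the highest percentile, averaged over the libraries, were Fam166b, at 1.23 and 0.702, Rflna, a regulator of filamin, at 1.28 and 0.638, and Ly6g6e, at 0.998 and 0.679. Cyp2t4 followed at 0.897 and 0.840, Mdk, the growth factor midkine, at 1.17 and 0.601, and Mapk11, the kinase p38 beta, at 0.936 and 0.679. Only 9 of the 309 exceeded a signal of 1 in replicate 1, Myh4 among them. Fam166b and Mapk11 had sites centred 6 bases from the start, with 4 and 4, and 5 and 5 footprints.

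**Figure D5:**
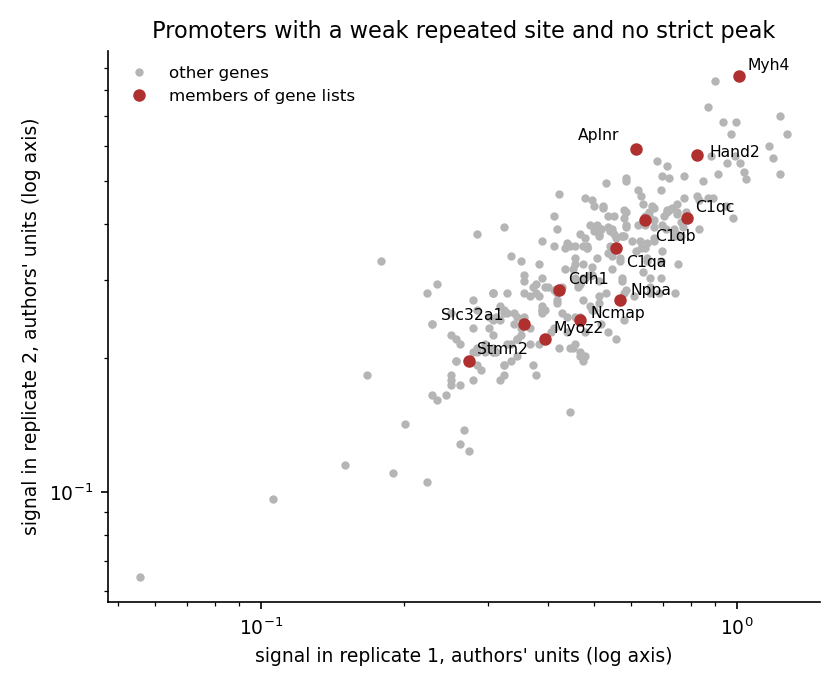
Signal in replicate 1 and replicate 2, in the authors' units on log axes, of the strongest weak repeated site at each of 309 promoters without a strict peak, with members of the gene lists named. Myh4 lies at the upper end, at 1.01 and 0.862, and Stmn2 at the lower end of the listed genes, at 0.273 and 0.197.

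Around genes, weak repeated sites were spread thinly. Within 50 kb of a start, 49.3% of protein-coding genes had at least 1, with a mean of 0.834 a gene beside 8.27 strict regions. The fast-fibre list had a mean of 2.33 weak repeated sites and 22.9 strict regions, and the fibroblast and tendon list 1.96 and 12.04. For every 100 strict regions there were 10.2 weak sites around fast-fibre genes and 16.3 around fibroblast and tendon genes, against 10.1 around all genes. Heart-enriched genes had 17.5, germ cell genes 17.4 and macrophage and leukocyte genes 15.3, so that the fibroblast and tendon list did not stand apart by this measure. The means of the other muscle lists lay between 0.923 for developmental contractile genes and 1.70 for the sarcomere and Z disc. Hepatocyte and epithelial genes had 0.474 and 0.300.

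The myosin heavy chain genes of the fast and developmental types lie in a row on chromosome 11 and had 6 weak repeated sites within 50 kb of their starts. A site 7889 bases upstream of the Myh4 start, at chr11:67230072-67230208, had signals of 1.16 and 0.771 with 2 footprints in each library. It was classed as intronic but lay between Myh1 and Myh4, within the span of neither, so the intron is that of another annotated gene. Together with the Myh4 promoter it was the brightest of the 6. A site 7211 bases from Myh2, the IIa chain, had 0.585 and 0.335. An exonic site at chr11:67196281-67196440 had 0.730 and 0.303. Its nearest start, 3691 bases away, was that of Myh1, the IIx chain, but it lay within the span of Myh2. Another exonic site, within the span of Myh1, had 0.552 and 0.395. Near Myh3, the embryonic chain, an intronic site had 0.758 and 0.390, with 2 and 4 footprints. Elsewhere, Myh7, the slow chain, had 1 site 2831 bases away (0.569 and 0.271) and Myh7b had 3, of which an exonic one at 1.13 and 0.395 differed most between the libraries. At promoters, Myh1 and Myh8, the perinatal chain, had strict peaks, Myh2 a weak peak in one library, and Myh3, Myh7, Myh7b, Myh13 and Myh15 none. Myh13 and Myh15 also had no weak repeated site within 50 kb.

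Mb, which encodes the oxygen store myoglobin, had 6 weak repeated sites and 24 strict regions within 50 kb, the most weak sites of any muscle-list gene. The span searched was 128.7 kb for Mb against 100.005 kb for the median gene, and the ranking is not per length. The brightest, at chr15:77013864-77014247, had signals of 1.13 and 0.830 with 5 and 3 footprints and lay 733 bases from a strict peak. It was 7907 bases from the nearest Mb start, so its promoter class comes from the start of another annotated gene. The next by mean percentile, in intergenic DNA 14831 bases from the Mb start, had 0.959 and 0.468. The lowest of the 6 had 0.362 in both libraries.

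Prox1, a regulator of slow fibres and of lymphatic vessels, had 5 weak repeated sites and only 4 strict regions within 50 kb. Signals ran from 0.479 to 0.669 in replicate 1 and from 0.330 to 0.615 in replicate 2. The site 101 bases from its start, at 0.624 and 0.358, had 2 footprints in replicate 1 and none in replicate 2. Utrn, the dystrophin relative utrophin, Prkar1a, a regulatory subunit of protein kinase A, and Sdc4, a syndecan of satellite cells, also had 5. Among myogenic regulators, Sox6, a repressor of slow-fibre genes, had 4 and Myod1 3, beside 14 and 26 strict regions. The span searched reached 273.6 kb for Utrn and 265.1 kb for Sox6. Mef2d, Tead1 and Tead4 had 3, Eya2, Mef2a, Mef2c, Pitx3 and Six4 had 2, and Msc, Myf5, Myf6, Nfix, Six2, Srf and Tbx15 had 1. Myog, Mef2b, Eya1, Eya4, Maf, Pax3, Pax7, Tcf21, Vgll2 and Vgll3 had none within 50 kb.

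Across all protein-coding genes Tns1, a protein of cell-matrix contacts, had the most, with 12 weak repeated sites and 70 strict regions. Sept9, a septin of the cytoskeleton, had 9, and Arhgef10l, Lpp, Pde10a, Ralgds, Samd4 and Zfp385b had 8 each. B230217C12Rik and Cel had 7. Several of these genes are long with starts far apart, so that the span searched reached 233 kb for Tns1 and 324 kb for Pde10a, against 100.01 kb for the median gene, and the counts are not per length. Counted by nearest start instead, without a distance limit, Lpp and the transcription factor gene Nfib had 18 sites each, Tns1 and Zfhx3 17, and Sox4 and Tgfbr2 16. The last list was drawn up after the values were seen.

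At 186 genes weak repeated sites were within 50 kb and strict peaks were not. Tbx5, a limb and heart regulator that marks the forelimb rather than the hind limb, was the listed gene with most, at 2 sites. A promoter-class site 3158 bases from its start had signals of 0.351 and 0.266, and an intronic site 33548 bases away had 0.563 and 0.257, with strict peaks 53309 and 48238 bases off. Ms4a6c, a membrane protein of the monocyte-macrophage lineage, had 3 such sites, among them its promoter site at 0.279 and 0.234.

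The 10 brightest sites reached the level of ordinary strict peaks. The first pair lay in exons nearest to Hjurp, a centromere histone chaperone, at chr1:88264974-88265077 with signals of 1.58 and 1.10 and at chr1:88260214-88260402 with 1.67 and 1.04. Sites near Gnai2, an inhibitory G protein subunit (1.67 and 0.950), in an intron near Bahcc1 (1.38 and 1.06) and near Mxra7 (1.48 and 0.963) followed. A site 47 bases from a start of Sept9 had 1.56 and 0.881. The site near Bahcc1, printed above with its AP-1 match, lay 60 bases from a strict peak, and that at Sept9 lay 14162 bases from one. A CTCF match occurred in the 200-base window of the site near Rusc2, at 1.43 and 0.922, though not within the 186 bases of the site. The others, near Gm16253, Arhgef17 and Cdc42ep2, had signals of 1.38 to 1.42 and of 0.940 to 0.991.

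Most of the 10 sites with the most footprint bases were wider than the median merged site of 176 bases, though that near Cerk was 137 bases wide. An intronic site near Prrc2b, 469 bases wide, had 5 and 8 footprints covering 62 and 65 bases, with signals of 1.13 and 0.725. The Mb site described above came next, with 71 and 53 footprint bases. Near Gata6, a site 502 bases wide had 6 and 7 footprints though its signals were only 0.457 and 0.326. The site near Ftl1, the ferritin light chain, had 8 and 4. Sites near Cerk, Plekhg3, Ptma, Ghdc and Sfi1 were also among the first 10, with signals from 0.641 to 1.06 in replicate 1 and from 0.5001 to 0.647 in replicate 2.

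Along the chromosomes the density of merged sites ran from 4.56 per Mb on chromosome 14 to 7.54 on chromosome 11, and was 2.04 on chromosome X, of which these male mice have a single copy. Relative to strict regions chromosome X was not apart, with 12.6 weak repeated sites per 100 strict regions beside 11.8 to 15.7 on the autosomes. Chromosome Y had 8 sites.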

How the data were processed

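Peak lists, footprints and FDR tracks of 2 DNase-seq libraries, made by the authors from each library's alignment to mm10 and used as deposited, were joined by position. Column 7 is a signal per peak, deposited by the authors on a scale that no label or header explains. The FDR per base (a p-value type of measure, listed under 0.05) and the footprint threshold of 0.01 are the authors' deposited values. The aligner, the callers and the depth were not given in the sources used here. No counts were at hand, so no counting interval was computed.

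Overlaps were of 1 base or more (bedtools 2.31.1, Python 3.11.15, pandas 2.3.3, pysam 0.24.0). Classes and starts were from GENCODE M21 (basic set). Windows of 200 bases on the midpoint were read from GRCm38, and flanking windows (26335 of 28436) lay 2 kb away without any permissive peak. The 23 gene lists (454 entries, of which Tf was not found) and 20 motifs, and the sites themselves, were chosen with earlier results of these data known. Named genes are up to 4 weak-only members per list, the 10 genes with most sites, the 10 brightest and the 10 most footprinted sites, the myosin heavy chains and the myogenic regulators. Some genes that this rule selects are not reported here. Overlap, distance and motif code was tested on simulated data. Alternatives covered overlap, FDR, nearby strict peaks, windows and single libraries. No test between groups was possible with 1 group.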

Additional observations from a re-analysis of the deposited data

How the results depend on the processing

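Shares and medians were called moved if they shifted by more than the SD over the 2 libraries, which is small because the libraries share their sites, and counts if they changed by over 1.5 times. All values that moved are given, and some that did not. With a reciprocal overlap of 50% there were 9280 sites, with 12.8% promoter, 47.2% intron and 33.3% intergenic peaks, a median gap to a strict peak of 4205.5 bases (mean over the libraries, 3497.5 for the sites as defined), 78.8% with a footprint, a CpG ratio of 0.235, and 26.4% E-box, 10.2% AP-1 and 4.20% NFI, and weak-only genes numbered 206. With a partner peak itself free of strict peaks there were 14.4% promoter, 45.6% intron and 33.01% intergenic peaks, a gap of 3730.5 bases and a CpG ratio of 0.241. Without sites that had a strict peak within 500 bases there were 11148 sites and 307 weak-only genes, 10.2% promoter, 48.0% intron and 34.8% intergenic peaks, a gap of 5915 bases, 75.3% with a footprint, a CpG ratio of 0.228, 51.75% GC, 9.63% repeats, and 27.3% E-box, 10.5% AP-1, 3.97% NFI and 3.44% CTCF. With a lowest FDR of 0.01 or less in both libraries, 5590 sites and 125 weak-only genes were left, with 15.0% promoter and 32.4% intergenic peaks, a gap of 3422 bases, 82.6% with a footprint, a CpG ratio of 0.238, 8.81% repeats, 26.6% E-box, 10.7% AP-1, 3.94% NFI and 2.63% CTCF, and a median signal of 41.1% of the strict median.

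Promoter windows of 250 and 2500 bases gave 5.88% and 23.3% promoter, 49.96% and 40.6% intron and 34.5% and 30.6% intergenic, with 279 and 322 weak-only genes. Footprints lying wholly inside a peak were in 73.4%. Windows of 100 bases gave 54% GC, a CpG ratio of 0.247, 8.33% repeats, and 2.29% CTCF, 16.4% E-box, 5.605% AP-1 and 3.07% NFI. Outside promoters, an alternative added after the data were seen, the values were 51.75% GC, 0.224 CpG ratio, 9.57% repeats, 27.1% E-box, 10.7% AP-1 and 3.94% NFI. Distances of 20 and 100 kb gave means of 0.375 and 1.60 weak repeated sites a gene.

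With 1 library left out, repetition could not be required, and all weak peaks of the other library were taken, so this is another set. The range over the 2 libraries was 52554 to 56360 sites, 905 to 1040 weak-only genes, 32.9% to 36.3% of the strict median signal, 14.1% to 14.9% promoter, 41.7% to 43.9% intron, 34.8% to 36.3% intergenic, 4290 to 6132 bases, 65.8% to 70.1% with footprints, 51% to 53% GC, 0.232 to 0.233 CpG ratio, 11.4% to 14.6% repeats, 22.1% to 23.3% E-box, 4.40% to 4.64% CTCF, 8.23% to 8.95% AP-1 and 2.99% to 4.06% NFI. No paired analysis was possible because there is 1 group only. The depth of the libraries is unknown from the files used here, so how far it limits the weak sites was not tested.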
